A study of Mus musculus with 4 samples.

Results

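Kainate receptors are ion channels that glutamate opens, built from subunits encoded by Grik1, Grik2, Grik3, Grik4 and Grik5. Grik1, Grik2 and Grik3 (the proteins GluK1, GluK2 and GluK3) can form channels on their own, whereas Grik4 and Grik5 (GluK4 and GluK5) bind glutamate with high affinity and need a subunit of the first kind to reach the surface as working channels. In the cortex kainate receptors are known both at postsynaptic sites, where they carry slow currents, and on axon terminals, where they tune the release of glutamate and GABA. Neto1 and Neto2 are auxiliary proteins that slow the gating of these channels. The 5 subunit genes, taken by name from the 31053 genes of the count matrices, were followed here across the excitatory subtypes and other cell classes of the mouse ventromedial prefrontal cortex (vmPFC).

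The study, called MERGE-seq, sequenced single cells from the prelimbic and infralimbic areas (PrL and IL) of male C57BL/6 mice, 8 weeks old when injected. Each mouse had received 5 retrograde viruses (rAAV2-retro, driving EGFP with a barcode from a short CAG promoter), 1 per target region, into MD, LH, BLA, DMS and AI. These are, in that order, nuclei of thalamus, hypothalamus and amygdala, then striatum and insular cortex. There were 3 unsorted libraries, titled by mouse, and 1 library of EGFP-sorted cells in which 3 further mice were pooled, so the sorted condition had a single library. Per the study's methods each unsorted library came from its own mouse, all on a single chip. The library was fitted as a block, so the p-values over these 3 libraries measure how steady the differences between cell groups were across mice. Their spread is 1 estimate per gene, shared by all cell groups of a fit. Tests on the viral barcode used all 4 libraries, the sorted pool among them. Slices of every library were kept in 10 µM CNQX, a blocker of AMPA receptors that is also known to block kainate receptors, and 50 µM D-AP5, a blocker of NMDA receptors, so no library was without these drugs.

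The libraries held 7243 to 8040 cell barcodes each when unsorted and 2075 when sorted, and any pair of libraries shared 5 to 30 cell barcode sequences. The labels call every library retrograde-labelled neurons, but of the 21263 cells that passed the limits on genes, UMIs and mitochondrial share, 9368 were excitatory neurons in the authors' metadata. Those neurons carry 1 of 7 subtype labels, which the authors drew from the expression of the same cells, so each test below takes the labels as given. Each subtype's name gene was highest in its own subtype in the unsorted libraries. Inhibitory neurons, absent from the metadata, were gated at 4 or more Gad1 and Gad2 UMIs and at most 3 Slc17a7 UMIs, which gave 1278 cells without sorting and 5 cells after sorting. The median depth was 21344 to 23213 UMIs per excitatory neuron and 13277 to 14101 UMIs per inhibitory neuron in the unsorted libraries. Levels are in CPM, the UMIs of a gene scaled to a common total of UMIs in each cell group, and since the kit counts 3′ ends with unequal efficiency between genes, each gene is compared across cell groups and not with another gene.

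On the mouse assembly GRCm38 the genes lie on 5 chromosomes. Grik1 (ENSMUSG00000022935) spans chr16:87895900-88290265 and Grik2 (ENSMUSG00000056073) spans chr10:49094833-49788766, both on the minus strand. Grik3 (ENSMUSG00000001985) spans chr4:125490700-125714173 on the plus strand. Grik4 (ENSMUSG00000032017) at chr9:42518135-42944493 and Grik5 (ENSMUSG00000003378) at chr7:25009849-25072346 are on the minus strand. The annotation (GENCODE vM21) places small same-strand genes inside 3 of them, among them a ferritin pseudogene inside Grik3, and none inside Grik1 or Grik5.

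Aligned coding sequences split the family as the proteins' roles do. Grik1, Grik2 and Grik3 were 69.2% to 72.0% identical to each other, Grik4 and Grik5 were 70.6% identical, and pairs across these groups were 51.7% to 56.4% identical. The 60-base stretch below is the most conserved one without a gap, in which 43 bases (capitals) were the same in all 5 genes. It encodes part of the ligand-binding domain, and in each gene it lies within 1 coding exon. Its position is chr16:87923086-87923145 in Grik1 (exon 15 of 18), chr10:49132688-49132747 in Grik2 (exon 15 of 17), chr4:125704487-125704546 in Grik3 (exon 14 of 16), chr9:42541831-42541890 in Grik4 (exon 18 of 21) and chr7:25015314-25015373 in Grik5 (exon 17 of 20). The sequences are shown because they are the part of the family that differs least, and the lower-case bases are those at which the 5 counted genes differ even there.
Grik1: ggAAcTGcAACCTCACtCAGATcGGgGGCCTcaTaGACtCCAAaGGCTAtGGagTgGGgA
Grik2: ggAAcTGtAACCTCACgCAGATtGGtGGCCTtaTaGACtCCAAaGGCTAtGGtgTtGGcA
Grik3: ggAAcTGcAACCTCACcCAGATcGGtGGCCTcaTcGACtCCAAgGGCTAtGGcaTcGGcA
Grik4: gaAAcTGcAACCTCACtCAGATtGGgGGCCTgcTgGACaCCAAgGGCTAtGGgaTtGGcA
Grik5: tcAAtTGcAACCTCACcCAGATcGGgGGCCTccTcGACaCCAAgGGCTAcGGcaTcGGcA

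The 3 channel-forming subunits were each high in a different set of neurons, while the high-affinity subunits varied less. Grik1 was high in inhibitory neurons and in L5-Htr2c neurons and close to 0 in the other 6 excitatory subtypes. Grik2 was highest in inhibitory neurons and L5-Bcl6 neurons. Grik3 was highest in L5-Htr2c and L6-Syt6 neurons and lowest in the layer 2/3 subtypes. A difference was called when the adjusted p was under 0.05 and the log2 fold change was at least 0.5 either way in edgeR's quasi-likelihood test (Benjamini-Hochberg adjustment, library as block). Of the 105 tests of the 5 genes over the 21 pairs of excitatory subtypes, 54 were called, where 26.7% of all gene tests over these pairs were called. By gene, the called pairs numbered 11 of 21 for Grik1, 11 for Grik2, 19 for Grik3, 8 for Grik4 and 5 for Grik5.

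**Figure D1:**
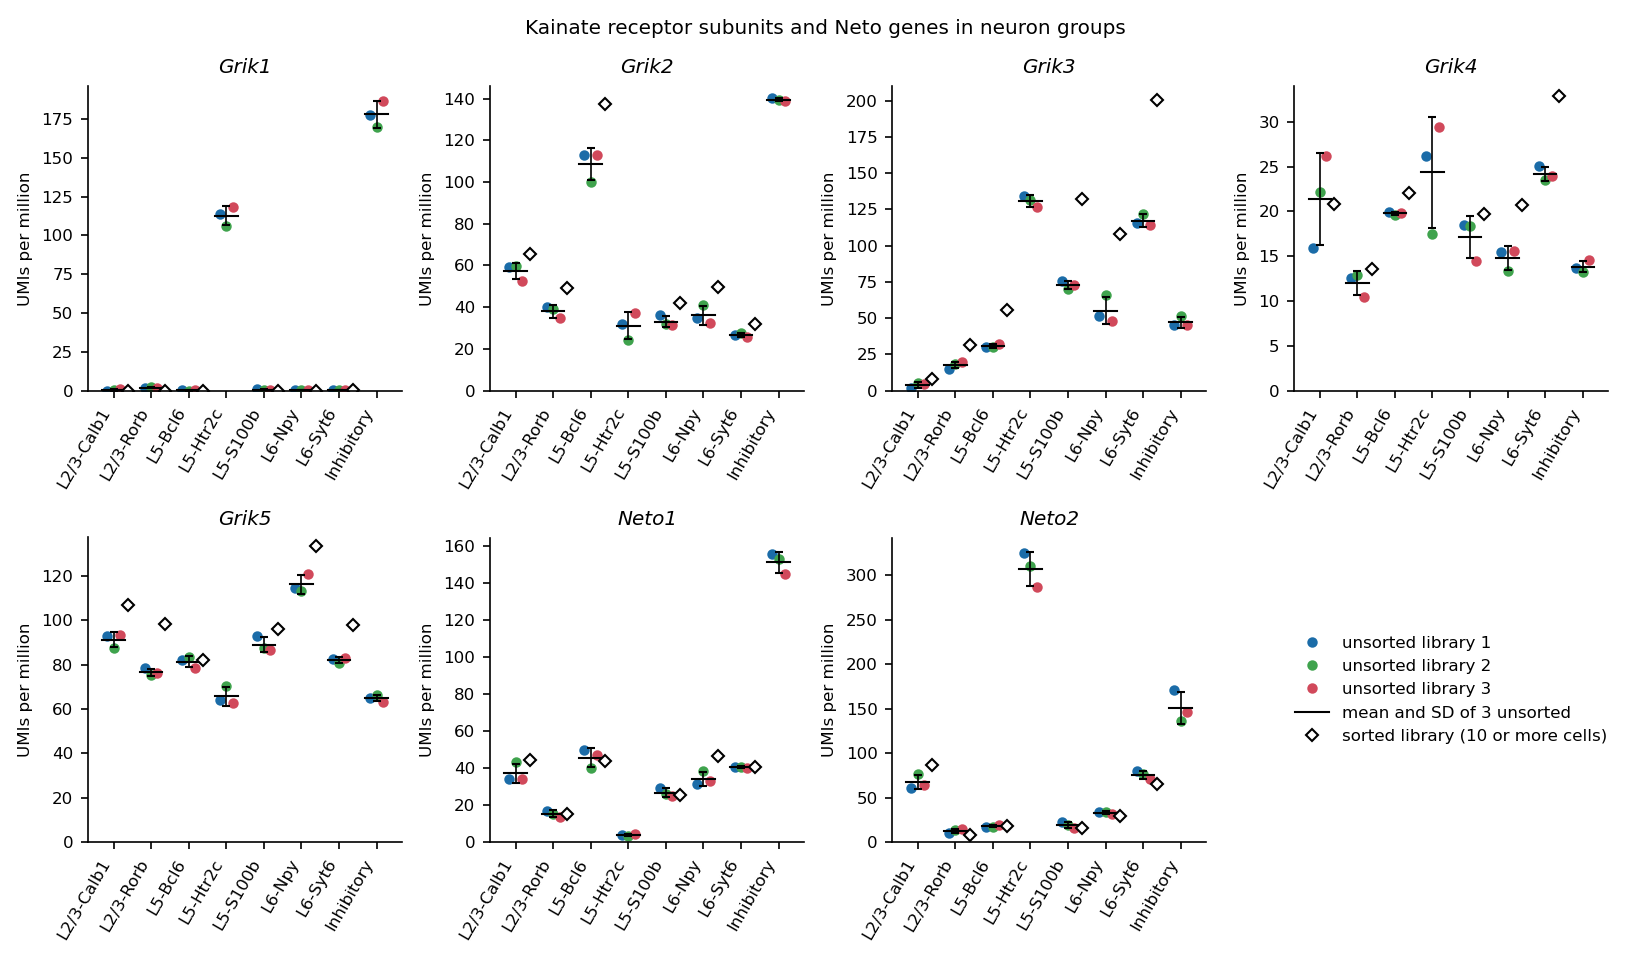
Level of each subunit gene and of Neto1 and Neto2 in CPM (y axis, from 0) in the 7 excitatory subtypes and inhibitory neurons (x axis), 1 coloured point per unsorted library, bars for their mean and SD (n = 3), and an open diamond for the sorted library. Grik1 stands near 0 outside L5-Htr2c and inhibitory neurons, Grik3 rises from 3.77 in L2/3-Calb1 to 131 in L5-Htr2c, and the sorted library's Grik3 lies above all 3 unsorted libraries in each of the 6 subtypes shown.

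Grik1 (GluK1), a subunit long known from cortical interneurons, was read at 177, 170 and 187 CPM in inhibitory neurons of unsorted libraries 1, 2 and 3. In L5-Htr2c neurons the same libraries gave 114, 106 and 118 CPM. The libraries of these groups did not overlap, and inhibitory neurons were higher by a log2 fold change of 0.68 (adjusted p = 2.8e-14, SE 0.06, edgeR). In the remaining 6 subtypes the count of Grik1 was 2 UMIs for L5-Bcl6, 3 for L2/3-Calb1, 8 for L6-Npy, 17 for L5-S100b, 23 for L2/3-Rorb and 58 for L6-Syt6 over all 3 unsorted libraries, against 529 in the 317 L5-Htr2c neurons. These counts are 0.265 ± 0.235 CPM (SD, n = 3) in L5-Bcl6 and 0.580 ± 0.149 CPM in the 4319 L6-Syt6 neurons. Against L6-Syt6, L5-Htr2c was higher by a log2 fold change of 7.43 (adjusted p = 6.3e-50, SE 0.14).

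Among the 6 subtypes near 0, L2/3-Rorb was the highest for Grik1, at 1.58, 2.20 and 1.79 CPM. The difference from each of the other 5 was called, for example by a log2 fold change of 1.56 over L6-Syt6 (adjusted p = 1.9e-04, SE 0.37). Without unsorted library 2, 4 of these 5 calls were lost and 7 of the 21 Grik1 pairs were called, and 4 were also lost with every cell thinned to 10000 UMIs. The call over L2/3-Calb1, on 23 UMIs against 3, was also lost with DESeq2 (adjusted p = 0.086) and without unsorted library 1. In the same L2/3-Rorb sums the inhibitory genes Gad1, Gad2 and Slc32a1 together stood at 8.33, 26.1 and 13.4 CPM, against 0.851 to 4.11 CPM in the sums of L2/3-Calb1, L5-Bcl6, L5-S100b, L6-Npy and L6-Syt6, and their part in the result was not tested. In L5-Htr2c the same 3 inhibitory genes summed to 2.33, 1.40 and 30.0 CPM, while inhibitory neurons had 2410 to 2546 CPM. Grik1 in L5-Htr2c stood at 114, 106 and 118 CPM in the same libraries, and the part of the inhibitory genes' source in it was not tested.

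Grik2 (GluK2), the subunit most widely described in the forebrain, was highest in inhibitory neurons, at 140, 139 and 139 CPM. L5-Bcl6 neurons followed at 113, 100 and 113 CPM and L2/3-Calb1 neurons at 59.1, 59.99 and 52.7 CPM. Inhibitory neurons and L5-Bcl6 did not overlap but differed by a log2 fold change of only 0.28 (adjusted p = 7.1e-05, SE 0.06, edgeR), which is under the limit on size. L5-Bcl6 exceeded each of the other 6 excitatory subtypes past both limits, by log2 fold changes from 0.99 over L2/3-Calb1 (adjusted p = 7.7e-14, SE 0.09) to 1.98 over L6-Syt6 (adjusted p = 2.0e-34, SE 0.07). The subtypes below L2/3-Calb1 lay close together, from 38.1 ± 3.03 CPM in L2/3-Rorb through 36.1 ± 4.55 in L6-Npy, 33.1 ± 2.52 in L5-S100b and 31.2 ± 6.42 in L5-Htr2c to 26.8 ± 0.826 in L6-Syt6 (SD, n = 3). No neighbours in that order differed past the threshold, the closest being L5-Htr2c and L5-S100b at an adjusted p of 0.23.

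Grik3 (GluK3), a subunit of low glutamate affinity, differed widely between the excitatory subtypes, including subtypes of the same layer. It was read at 134, 132 and 127 CPM in L5-Htr2c and at 115, 122 and 114 CPM in L6-Syt6 neurons. The fit, which rescales each sum by TMM factors, put these groups within 0.029 of each other on the log2 scale (95% interval −0.11 to 0.16). L5-S100b neurons came next at 75.5, 70.4 and 72.5 CPM, lower than L6-Syt6 by a log2 fold change of 0.71 (adjusted p = 1.8e-23, SE 0.04, edgeR). L6-Npy neurons had 51.5, 65.9 and 48.1 CPM and overlapped with inhibitory neurons at 45.0, 51.6 and 45.1 CPM.

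Grik3 then fell to 29.8, 30.2 and 32.0 CPM in L5-Bcl6, a layer 5 subtype, and to 15.1, 18.1 and 19.4 CPM in L2/3-Rorb. The lowest group was L2/3-Calb1, with 1.54, 5.41 and 4.35 CPM from 3, 11 and 9 UMIs. L5-Bcl6 exceeded L2/3-Rorb by a log2 fold change of 0.84 (adjusted p = 4.8e-06, SE 0.15), and L2/3-Rorb exceeded L2/3-Calb1 by 2.23 (adjusted p = 1.1e-09, SE 0.28). The 3 layer 5 subtypes therefore spanned 30.7 to 131 CPM, and the order by level was not the order by layer throughout. The 2 pairs not called were L5-Htr2c with L6-Syt6 and L5-S100b with L6-Npy, the latter at a log2 fold change of 0.42 (adjusted p = 1.1e-07, SE 0.07).

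Grik4 (GluK4) was the more sparsely counted of the high-affinity subunits, with 115 to 473 UMIs per subtype in the unsorted libraries other than 2416 in L6-Syt6. Its levels ran from 12.0 ± 1.32 CPM in L2/3-Rorb to 24.3 ± 6.17 CPM in L5-Htr2c (SD, n = 3). L6-Syt6 neurons gave 25.01, 23.5 and 23.97 CPM and L2/3-Rorb neurons 12.6, 12.9 and 10.5 CPM, a log2 fold change of 1.09 (adjusted p = 6.1e-13, SE 0.11, edgeR). Of the 8 called pairs, 5 involved L2/3-Rorb as the lower subtype and the rest were L6-Syt6 over L5-S100b, L6-Syt6 over L6-Npy and L5-Htr2c over L6-Npy. The pair of L6-Syt6 and L5-S100b fell below the limit on size without unsorted library 3, at 0.48. The libraries of L5-Htr2c ranged from 17.4 to 29.4 CPM on 25 to 45 UMIs each, so its place at the top of the order was not separated from L6-Syt6 (95% interval of the log2 difference −0.39 to 0.16) or from L2/3-Calb1.

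Grik5 (GluK5), the common partner subunit in the forebrain, was read in every neuron group at 62.6 to 121 CPM per unsorted library. L6-Npy was the highest, with 114, 113 and 121 CPM in the unsorted libraries, apart from all other groups. L5-Htr2c, at 64.0, 70.5 and 62.6 CPM, and inhibitory neurons, at 65.1, 66.3 and 63.4 CPM, were the lowest, and the log2 difference between them had a 95% interval of −0.16 to 0.18. The log2 fold change of L6-Npy over L5-Htr2c was 0.92 (adjusted p = 8.0e-16, SE 0.08, edgeR). The other 4 called pairs were L6-Npy over L2/3-Rorb, L6-Npy over L5-Bcl6, L5-S100b over L5-Htr2c and L2/3-Calb1 over L5-Htr2c, with log2 fold changes of 0.51 to 0.63. The last of these was at 0.51, and 3 of the 5 pairs stayed called without unsorted library 1 and 3 without unsorted library 3.

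Inhibitory neurons were set against the unweighted mean of the 7 excitatory subtypes to ask which subunits separate the classes. Of the 5 genes, 2 were called, both higher in inhibitory neurons, where 36.1% of the 13448 genes tested were called. Grik1 had a log2 fold change of 7.07 (adjusted p = 4.8e-66, SE 0.07) and Grik2 one of 1.67 (adjusted p = 1.8e-42, SE 0.04), both in 3 of 3 libraries by edgeR. The Grik1 value averages subtypes that are near 0 on the log scale, so it describes the gap from most excitatory subtypes and not the 0.68 to L5-Htr2c. Grik4 and Grik5 were lower by 0.48 and 0.44 with adjusted p of 1.8e-05 and 9.0e-14, under the limit on size, and Grik4 was called without unsorted library 3 at −0.52. Grik3 was at 0.24 (adjusted p = 0.0041, SE 0.08) in this fit, which averages the subtypes on the log scale. In CPM it was lower in inhibitory neurons in 3 of 3 libraries, at 47.3 against a subtype mean of 61.2. Pooling all excitatory neurons into 1 sum, in which 4319 of the 7765 neurons were L6-Syt6, turned the log2 fold change of Grik3 to −1.03 (adjusted p = 1.1e-22). Against each subtype in turn, where 39.5% of gene tests were called, Grik3 was higher in inhibitory neurons than in 3 subtypes, lower than in 3 and uncalled against L6-Npy. In the same 35 tests Grik1 was higher in inhibitory neurons in 7 of 7 and Grik2 in 6 of 7, and Grik4 was lower in 4 and Grik5 in 3. Markers of 6 non-neuronal classes, 30 genes, summed to 214 to 286 CPM in the inhibitory sums and 41.7 to 82.7 CPM in the unsorted excitatory sums, with 29 or 30 of the markers detected in inhibitory neurons, and their part in these differences was not tested.

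Among inhibitory neurons, cells with Lhx6 and without Adarb2 (Lhx6-type, 421 cells) were compared with cells of the reverse pattern (Adarb2-type, 795 cells). These genes mark interneurons of medial and caudal ganglionic origin, respectively. Grik3 was read at 95.7, 111 and 93.3 CPM in Lhx6-type cells and at 4.71, 8.47 and 6.69 CPM in Adarb2-type cells, a log2 fold change of 3.92 (adjusted p = 9.0e-31, SE 0.15, edgeR). Grik1 was at 267, 227 and 277 CPM against 90.7, 120 and 109 CPM, a log2 fold change of 1.28 (adjusted p = 7.7e-23, SE 0.07). Both genes were higher in Lhx6-type cells in 3 of 3 libraries with no overlap. Grik4 went the other way, with 7.07, 5.72 and 9.41 CPM in Lhx6-type cells and 19.1 CPM in each library of Adarb2-type cells (log2 fold change −1.37, adjusted p = 2.3e-07, SE 0.21). Grik2 was also lower in Lhx6-type cells, at 124, 98.4 and 114 CPM against 154, 171 and 159 CPM (log2 fold change −0.52, adjusted p = 7.8e-09, SE 0.07), a call that was lost without unsorted library 2, at −0.38. Grik5 was not called, at 0.20 (adjusted p = 0.054, SE 0.08). The 4 calls among 5 genes stand beside 21.3% of the 12970 genes tested.

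**Figure D2:**
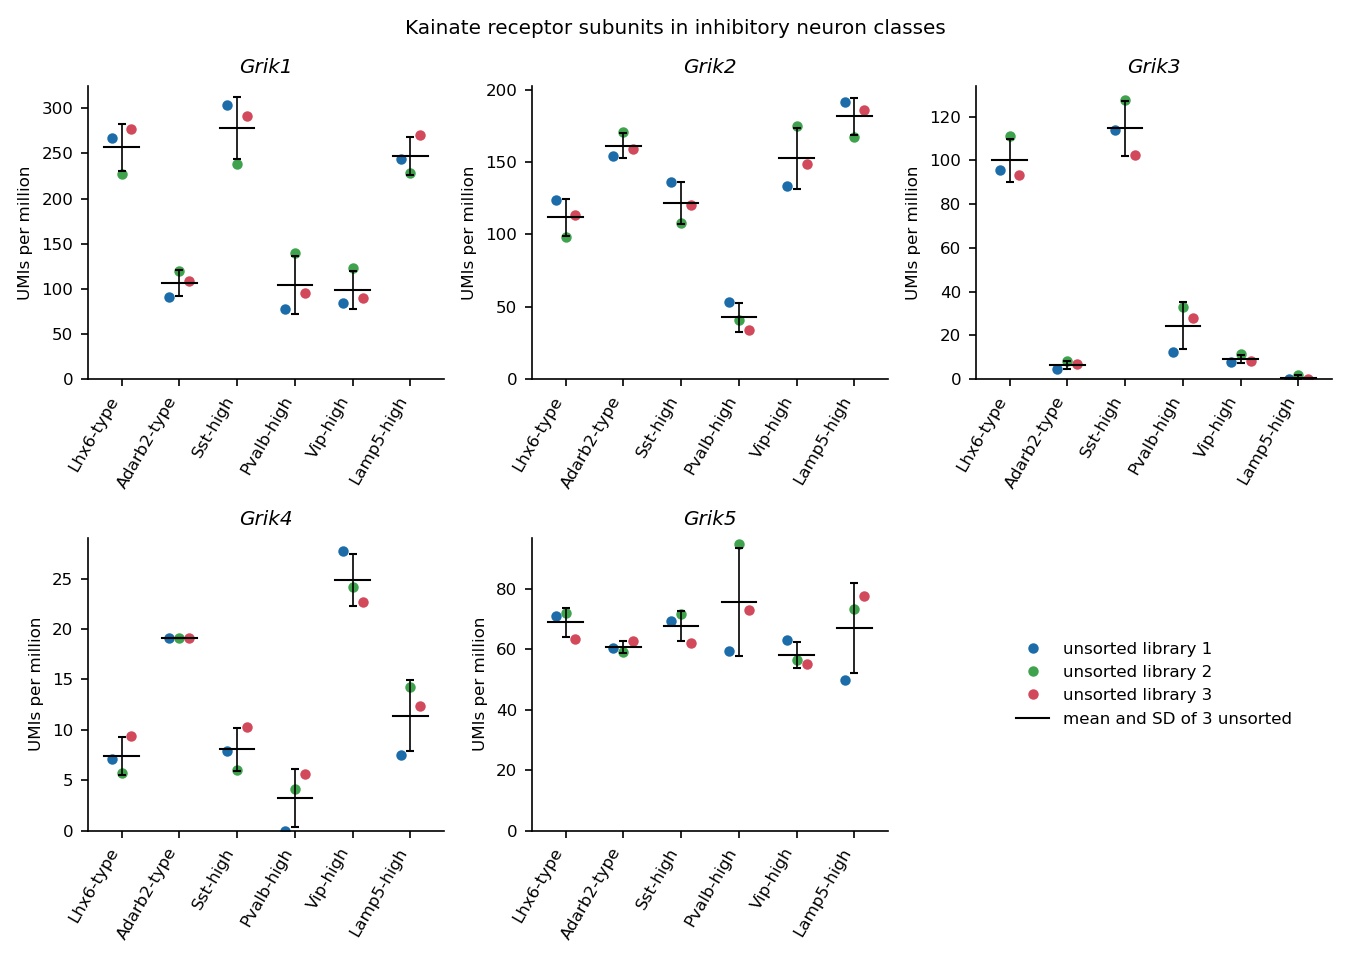
Level of each subunit gene in CPM (y axis, from 0) in inhibitory classes defined by Lhx6, Adarb2, Sst, Pvalb, Vip and Lamp5 UMIs (x axis), 1 coloured point per unsorted library with bars for the mean and SD (n = 3). Grik3 lies at 103 to 128 in Sst-high cells and at 0 to 11.3 in Vip-high and Lamp5-high cells, and Grik1 is at 229 or more in every library of Sst-high and Lamp5-high cells.

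Finer classes were described without a test. Sst-high cells (Lhx6-type with 20 or more Sst UMIs) had 278 ± 34.7 CPM of Grik1 and 115 ± 12.6 CPM of Grik3. They were 343 of the 421 Lhx6-type cells, so the Lhx6-type values are mostly theirs. Pvalb-high cells (35 cells) had 105 ± 31.9 CPM of Grik1 and 24.5 ± 10.7 CPM of Grik3, from 76 and 17 UMIs in all. On the Adarb2 side, Lamp5-high cells (82 cells) had 248 ± 20.9 CPM of Grik1, more than the 98.9 ± 20.8 CPM of the 481 Vip-high cells, with no overlap of the libraries. High Grik1 was therefore found in a class on each side, Sst-high and Lamp5-high. Grik3 had 1 UMI in all Lamp5-high cells and 46 UMIs, or 9.09 ± 1.94 CPM, in Vip-high cells. Grik4 was highest in Vip-high cells, at 27.7, 24.2 and 22.7 CPM, and Grik2 lowest in Pvalb-high cells, at 53.1, 41.2 and 33.7 CPM on 6 to 17 UMIs per library.

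Outside neurons, oligodendrocyte precursors (OPC-like cells, 1567 in the unsorted libraries) held all 5 subunits. Their Grik5 was 105, 99.4 and 94.4 CPM, Grik2 72.3, 72.3 and 65.6 CPM and Grik1 56.6, 66.2 and 70.0 CPM. Grik3 stood at 51.5 ± 4.22 CPM and Grik4 at 43.6 ± 1.20 CPM (SD, n = 3). The Grik4 level in OPC-like cells was above that of every neuron group in every unsorted library. Astrocyte-like cells (457 cells) had 61.0 ± 10.95 CPM of Grik5 and 21.6 ± 7.36 CPM of Grik2, with 15 UMIs or fewer for each of the others. Oligodendrocyte-like cells had 33.4 ± 6.72 CPM of Grik2 and 19.6 ± 1.41 CPM of Grik5. Microglia-like cells, which are not of neural origin, had 0.973 to 2.05 CPM of Grik1 to Grik4 and 5.48 ± 0.631 CPM of Grik5, and Grik1 at 0.973 ± 0.739 CPM there was of the size of Grik1 in the 6 excitatory subtypes near 0.

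**Figure D3:**
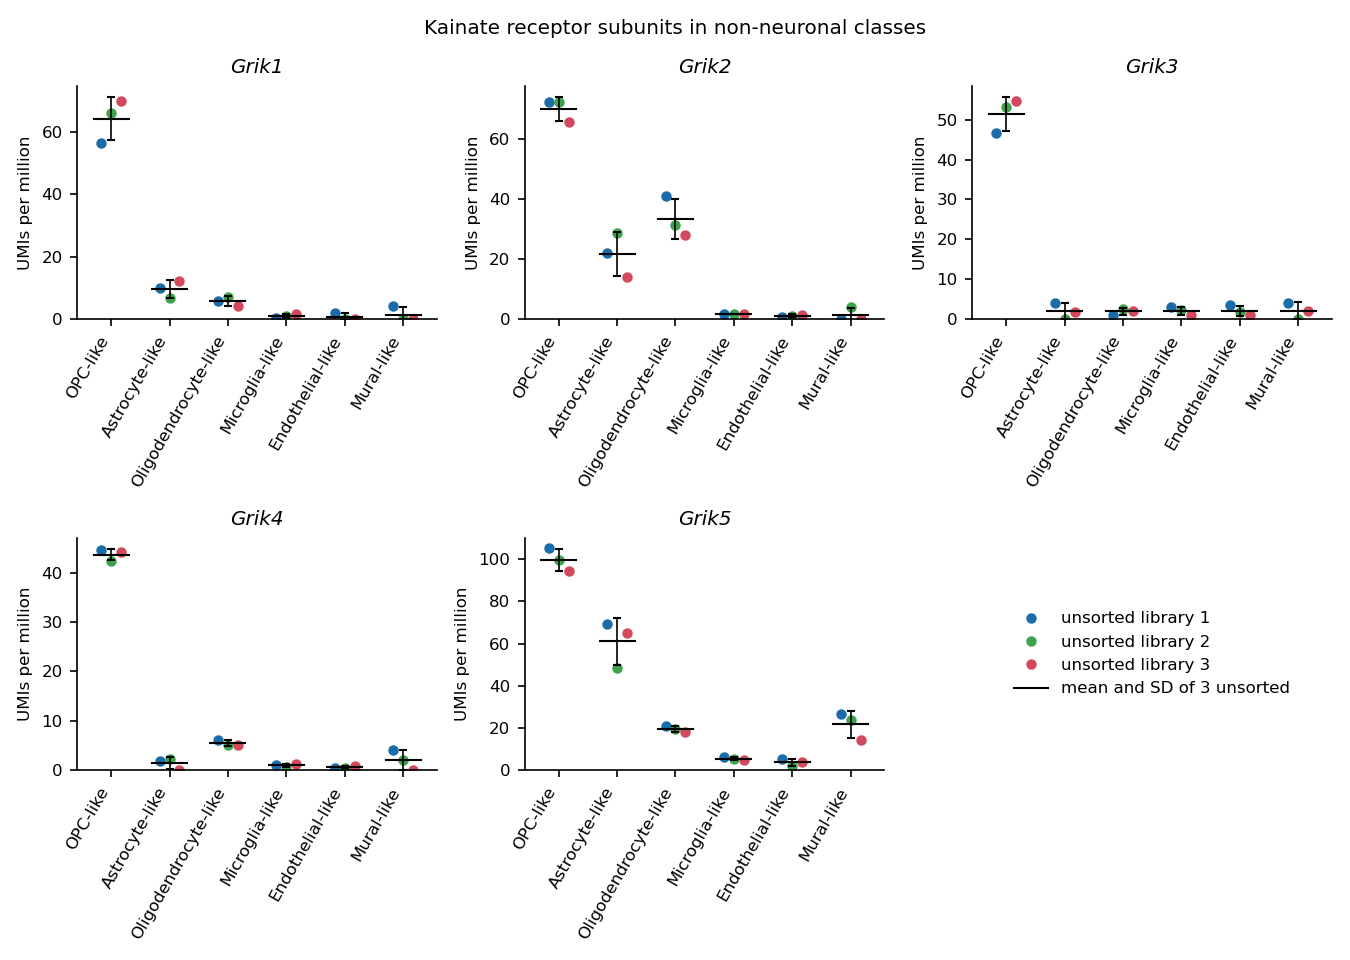
Level of each subunit gene in CPM (y axis, from 0) in 6 non-neuronal classes named from 5 markers each (x axis), 1 coloured point per unsorted library with bars for the mean and SD (n = 3). OPC-like cells hold all 5 genes at 42.3 or more per library, whereas microglia-like and endothelial-like cells stay at 6.13 or less.

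The share of cells with a UMI was compared after each cell was thinned to 10000 UMIs, shallower cells being left out. Grik3 was found in 71.2% ± 1.68 of L5-Htr2c and 68.0% ± 1.23 of L6-Syt6 neurons (SD, n = 3), and in 1.6% ± 0.61 of L2/3-Calb1 neurons. Grik1 was found in 53.7% ± 9.54 of L5-Htr2c neurons, 82.5% ± 1.10 of Lhx6-type and 52.6% ± 4.84 of Adarb2-type inhibitory neurons, and in 0 to 1.4% of neurons of the other subtypes. Grik2 was found in 66.1% ± 4.13 of L5-Bcl6 neurons against 23.3% ± 0.63 of L6-Syt6 neurons, and Grik5 in 54.6% to 66.9% of every excitatory subtype but L5-Htr2c at 48.8%. Before thinning, the Grik3 shares were 83.0%, 89.8% and 4.8% in L5-Htr2c, L6-Syt6 and L2/3-Calb1. To set these against cells that should lack the genes, all classes were thinned to 2000 UMIs, at which 0.18% of microglia-like cells (median 4316 UMIs before thinning) and 21.3% of L6-Syt6 neurons (median 22800) had a Grik3 UMI. At that depth Grik1 was found in 0.14% of L6-Syt6 neurons and 0.26% of microglia-like cells, so its share in L6-Syt6 was not above background.

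How many subunits were found together in a neuron is described by subtype, without a test or a background share. At 10000 UMIs, 2 or more subunits were found in 28.9% ± 0.337 of L2/3-Rorb neurons, 35.8% ± 4.70 of L2/3-Calb1 neurons, 57.8% ± 0.765 of L6-Syt6 neurons, 75.4% ± 8.15 of L5-Htr2c neurons and 85.1% ± 0.535 of Lhx6-type cells (SD, n = 3). At the same depth, none of the 5 subunits was found in 9.2% ± 0.82 of L6-Syt6 neurons, 23.4% ± 1.13 of L2/3-Rorb neurons and 4.5% ± 0.40 of inhibitory neurons. Exactly 2 subunits were found in 40.2% ± 0.34 of L6-Syt6 neurons and 22.5% ± 2.13 of L2/3-Rorb neurons. At least 3 subunits were common in Lhx6-type cells, where 37.6% ± 5.63 held 3 and 13.0% ± 2.71 held 4.

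Of 16 genes whose products are known to bind, traffic or stabilise kainate receptors, 14 were tested between inhibitory neurons and the mean of the excitatory subtypes, since Pick1 is listed under 2 identifiers that split its reads and Klhl17 was not analysed here. There, 3 were called higher and 5 lower, beside 36.1% of all genes called in that contrast, with a median log2 fold change of −0.30 against 0.028 over all genes tested. Neto1 was read at 156, 153 and 145 CPM in inhibitory neurons, above every excitatory sum, with a log2 fold change of 2.63 (adjusted p = 1.3e-50, SE 0.05, edgeR). Neto2 had 170, 136 and 146 CPM in inhibitory neurons, a log2 fold change of 1.80 over the mean of the subtypes (adjusted p = 9.0e-42, SE 0.05), but it was called lower there than in L5-Htr2c, by 1.01 on the log2 scale (adjusted p = 3.2e-23, SE 0.06). Grip1, a scaffold that binds the tails of glutamate receptors, was the third gene called higher, at 2.46 (SE 0.05). C1ql3, a secreted synaptic organiser of the C1q family, was lower by 5.27 on the log2 scale (SE 0.09). The scaffolds Dlg1 and Dlg4, known as SAP97 and PSD-95, were lower by 1.31 and 0.72. Ctnnb1 (beta-catenin) and Snap25, a protein of the release machinery, were the other genes called lower, by 0.64 and 0.59.

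The Neto genes parted in L5-Htr2c, the excitatory subtype where Grik1 and Grik3 were both high. In L5-Htr2c neurons Neto2 was at 325, 310 and 287 CPM and Neto1 at 4.08, 3.49 and 4.57 CPM. The next highest excitatory subtype for Neto2 was L6-Syt6, at 79.6, 76.4 and 71.0 CPM, lower by a log2 fold change of 1.89 (adjusted p = 1.2e-37, SE 0.06, edgeR). Neto1 was lower in L5-Htr2c than in each other excitatory subtype, for example by a log2 fold change of 3.45 against L6-Syt6 (adjusted p = 2.8e-22, SE 0.21). Lhx6-type cells, in which Grik1 and Grik3 were also high, had 272 ± 26.6 CPM of Neto2 against 54.1 ± 12.6 CPM in Adarb2-type cells, a log2 fold change of 2.34 (adjusted p = 1.4e-33, SE 0.08). Neto1 was not called there, at 0.29 (adjusted p = 1.3e-04, SE 0.06). Of the 13 partner genes tested between these types, 2 were called higher in Lhx6-type cells (Neto2 and the motor protein gene Kif17) and 3 lower (Grip1, Ctnnb1 and the cadherin gene Cdh2, the last of them under the limit on size without unsorted library 1 or 2, at −0.49 and −0.46), beside 21.3% of all genes, with a median log2 fold change of 0.052 against 0.0072 over all genes.

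Genes whose log2 level (CPM plus 1) ran closest to each subunit over the 21 sums of 7 subtypes by 3 unsorted libraries were listed as a description, from 7013 genes. The sums share libraries and subtypes and are not independent. For Grik1 these were Rit2 (Pearson's r = 0.95), Tspyl4 (0.95) and Selenom (0.95), and for Grik2 they were Pou3f1 (0.98), Tiam1 (0.92) and Gtf2h5 (0.91). Grik3 ran with Ftl1-ps1 (0.96), Nipal3 (0.94) and Dpysl5 (0.94), of which Ftl1-ps1 is a ferritin pseudogene whose reads may be shared with its copies. Grik4 ran with Npm1 (0.86), Mcfd2 (0.83) and Snx2 (0.82), and Grik5 with Sh3bgrl3 (0.95), Plat (0.94) and Nin (0.92). Between the subunits themselves r ran from −0.67 for Grik1 with Grik5 to 0.42 for Grik1 with Grik3.

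The sorted library gave higher levels of most subunits within the same subtype. Of 23 values of subunit and subtype with at least 5 CPM in the unsorted libraries, 21 lay above all 3 unsorted libraries and 2 within their range, where 49.5% of such gene values lay above all 3. Grik3 stood out by size. In L6-Syt6 neurons it was at 200 CPM in the sorted library against 117 ± 4.26 CPM in the unsorted libraries (SD, n = 3), in L5-S100b at 132 against 72.8 ± 2.56 CPM and in L6-Npy at 108 against 55.2 ± 9.45 CPM. Its ratio of sorted to unsorted was 1.71 to 1.95 in 5 subtypes, above the ratio of 98.1% to 99.4% of genes in the same subtypes, where the median gene had 1.06 to 1.09. Ratios of Grik2 were 1.14 to 1.37, of Grik4 0.98 to 1.40 and of Grik5 1.01 to 1.28. Grik1 had 3 UMIs in the 773 sorted L6-Syt6 neurons, 14 in the 4 sorted L5-Htr2c neurons and none in the remaining 5 subtypes.

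**Figure D4:**
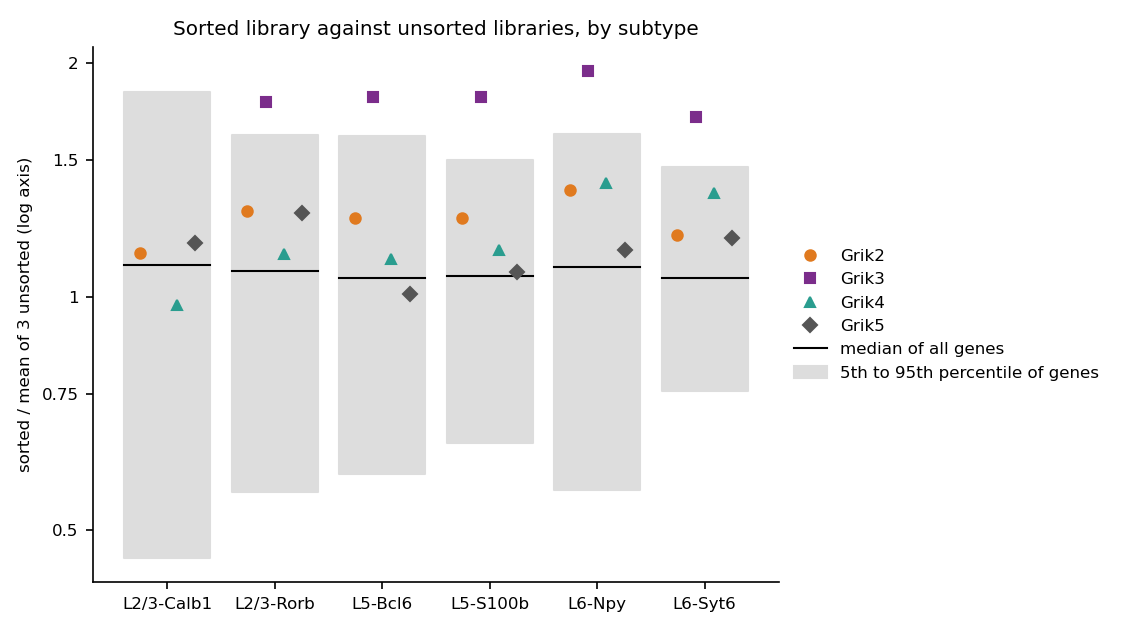
Level in the sorted library divided by the mean of the 3 unsorted libraries (y axis, log scale) for Grik2 to Grik5 in 6 excitatory subtypes (x axis), with the median of all genes as a line and their 5th to 95th percentile as a grey band. Grik3 lies above the band in the 5 subtypes where it reached 5 CPM, at 1.71 to 1.95, and the other subunits lie within it.

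The sorted and unsorted sides cannot be told apart from their mice or their preparation, since the sorted side is 1 library, and no test was made. The sorted sums also had less of the 30 non-neuronal markers, 22.7 to 48.2 CPM against 41.7 to 77.1 CPM in the same subtypes unsorted, and more UMIs per neuron, with a median of 31669. The thinned shares at 10000 UMIs also differed, with a Grik3 UMI in 84.0% of 739 sorted L6-Syt6 neurons (95% Wilson interval 81.2% to 86.5%, counting error only). The part of sorting, mice and depth in these values was not tested.

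Whether a neuron that carries much viral transcript differs in its subunits was asked within subtypes and libraries. Neurons with 5 or more UMIs of the viral barcode feature (barcode-high) were compared with neurons without any (barcode-zero) in the 4 subtypes with at least 10 cells of each kind in every library. That feature does not separate the 5 targets, and a neuron without it may still be a labelled one. The main fits did not match barcode-high and barcode-zero neurons for total UMIs per neuron, and that depth was not compared between them. No subunit was called in any of these subtypes over 16 tests, Grik1 being too low to test. The share of the 12081 genes tested that was called was 0.0414% for L2/3-Rorb, 2.61% for L5-S100b, 0.472% for L6-Npy and 2.13% for L6-Syt6, and DESeq2 also called none of the 16 tests.

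Among these 16 tests, 3 had an unadjusted p under 0.05, where 15.1% of all gene tests in these subtypes did, so the count is near that of all genes and the values are given as a description. Grik3 in L5-S100b was at 82.1, 73.3 and 74.4 CPM in barcode-high neurons of unsorted libraries 1, 2 and 3 and 140 CPM in those of the sorted library, against 60.1, 54.0, 66.7 and 115 CPM in barcode-zero neurons. It was higher in 4 of 4 libraries, with a log2 fold change of 0.36 (adjusted p = 0.027, SE 0.10, edgeR), under the limit on size. Thinning each cell to 10000 UMIs brought it to 0.56 (adjusted p = 0.026), past both limits. Grik2 in L2/3-Rorb was lower in barcode-high neurons in 4 of 4 libraries, at 38.2, 33.0, 31.1 and 44.0 CPM against 52.9, 52.5, 50.4 and 53.8 CPM. Its log2 fold change was −0.52 (SE 0.14) and its adjusted p of 0.23 did not pass. Grik5 in L2/3-Rorb was higher in 4 of 4 libraries, by 0.32 (adjusted p = 0.57, SE 0.11). The barcode-zero side of L2/3-Rorb held 15 to 40 cells per library, which limits what could be detected there. The uncalled Grik4 effects in L6-Npy and L5-S100b changed in size with the library left out but kept their direction. That of 0.49 in L6-Npy fell to 0.27 without unsorted library 1 and reached 0.76 without the sorted library. In L5-S100b the Grik4 effect of −0.37 moved to −0.60 without unsorted library 3, to −0.19 without unsorted library 1 and to −0.22 without the sorted library.

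**Figure D5:**
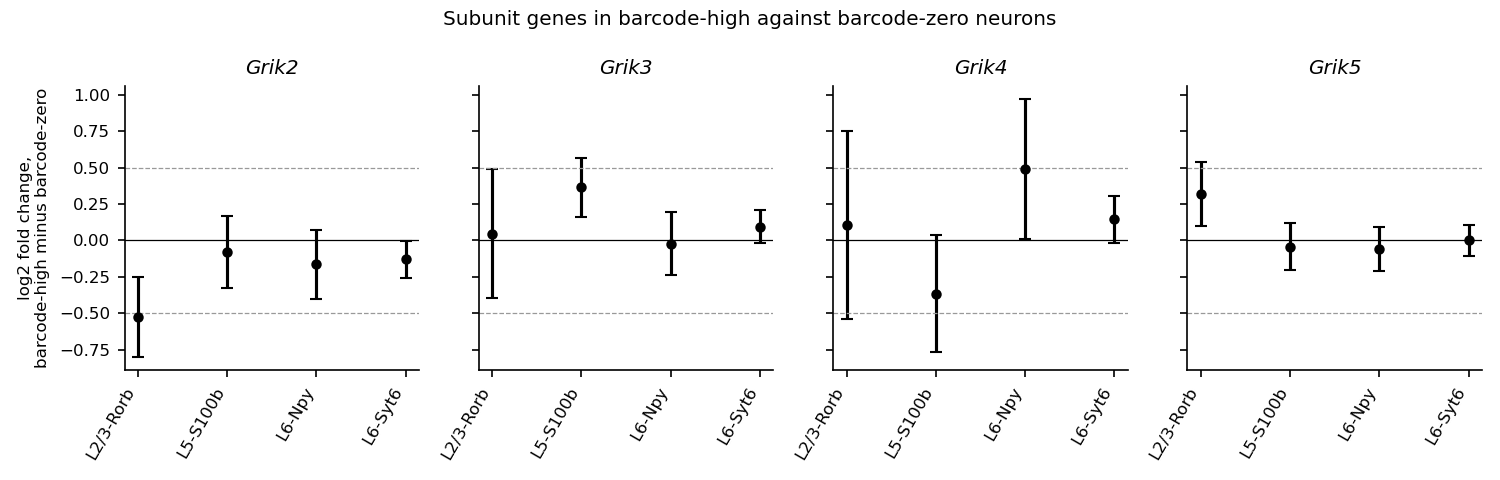
Log2 fold change of barcode-high over barcode-zero neurons (y axis) for Grik2 to Grik5 in 4 subtypes (x axis), with 95% intervals from the fit over 4 libraries and dashed lines at the limit of 0.5. The points lie between −0.52 and 0.49, and the widest intervals belong to Grik4.

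Effects of the barcode were also compared between subtypes. In the 6 differences between the 4 subtypes none of the subunits was called, where 1.31% of all gene tests were called. The lowest adjusted p was 0.18, for Grik4 in L5-S100b against L6-Syt6 with a difference of −0.51 on the log2 scale, and 9 of these 24 tests had an unadjusted p under 0.05, where 12.1% of all gene tests of these differences did. Of the 13 partner genes tested, Snap25 was called higher in barcode-high L5-S100b neurons, by 0.52 (adjusted p = 8.7e-11, SE 0.04), and C1ql3 in barcode-high L6-Syt6 neurons, by 0.98 (adjusted p = 1.3e-05, SE 0.15), higher in 3 of 4 libraries and lower in 1. The C1ql3 call was lost without the replicate block (0.84, adjusted p = 0.19). The Snap25 call was lost without unsorted library 2, at 0.47. Total UMIs per neuron were not compared between the barcode groups behind these calls, which limits their reading.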

How the data were processed

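Single-cell 3′ libraries were made from the vmPFC of 3 mice without sorting and of 3 pooled mice after sorting for EGFP. The deposited matrices hold raw UMI counts per gene and cell from Cell Ranger 3.0.2 on a customised mm10 reference, with no normalization by the authors. The deposited metadata give the subtype of each excitatory neuron after clustering by the authors (Seurat 3.1.4 per the labels' processing notes), its total counts and its percent of mitochondrial counts per the file headers, and 1 other file type lists gene identifiers. Other cells needed 500 to 8000 genes, a total of 1000 to 60000 UMIs and a mitochondrial share below 20%.

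The counts of each library were added up within cell groups, leaving the viral feature out. Levels are CPM of these sums. Tests used edgeR 4.0.16 (filterByExpr, TMM, quasi-likelihood F test) over 24 sums of 8 neuron groups by 3 unsorted libraries, 27 sums for the inhibitory types and 32 sums for the barcode groups, with the library (or library by subtype) as block. Standard errors are the log2 fold change divided by the root of F. In counts simulated for the comparison of L5-Htr2c with L6-Syt6 over 13448 genes, 69% of changes of 1 and 89% of changes of 2 on the log2 scale were recovered. DESeq2 1.42.0 and the other alternatives are given in the closing section. No doublet caller was run, and the main inhibitory gate kept cells with up to 3 Slc17a7 UMIs. Non-neuronal classes needed 5 UMIs of their 5 markers, 4 times those of any other class, and at most 1 Gad1 or Gad2 UMI. Vip-high, Lamp5-high and Pvalb-high cells needed 3 UMIs of the gene.

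Coding sequences were the longest per gene in GENCODE vM21 and were aligned with MAFFT 7.526. The named genes were the 5 subunits, Neto1, Neto2, the 4 other partner genes called with the largest change in inhibitory neurons, and the 3 genes of at least 20 CPM most like each subunit. Other partner genes were named where a count of calls was 5 or fewer, after their values were seen. The members, lists and gates were chosen with earlier results of these data known.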

Additional observations from a re-analysis of the deposited data

How the results depend on the processing

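Over DESeq2, relative log expression (RLE) factors, no filter on low counts, the sorted library added, no replicate block, thinning, other gates and leaving out each library, the 5 subunits' pairwise calls totalled 48 to 54 of 105, against 54. Fits without the replicate block gave 11, 11, 19, 8 and 5 called pairs for Grik1 to Grik5, the same counts as with the block. Leaving out a library gave 7 to 10 called pairs for Grik1, and thinning gave 7, against 11, with the lost pairs those of L2/3-Rorb. For Grik5 leaving out a library gave 3 to 6 pairs against 5. Against the mean of the subtypes, thinning moved Grik4 past the size limit at −0.66, and leaving out a library gave −0.52 to −0.47. With excitatory neurons pooled Grik3 reversed to −1.03, Grik4 reached −0.71 and Grik5 −0.51, and the cause was not tested. An inhibitory gate without the cell filter, chosen after seeing the data, changed no call. Between inhibitory types Grik2 ran from −0.63 to −0.38 without a library. Thinning called 1 barcode effect, Grik3 in L5-S100b at 0.56, where the other settings called 0. Of the partner genes not called between inhibitory types, C1ql3 ran from -0.25 to 0.035 without a library and was reversed without unsorted library 1. Dlg1, also not called there, reversed to -0.032 under a stricter type gate. Of the single called pairs of the subunits, 19 recomputed values fell short of the call and none reversed. Without the replicate block C1ql3 in L6-Syt6 was no longer called (0.84, adjusted p = 0.19), and with barcode-positive neurons Snap25 in L5-S100b fell to 0.48. Barcode effects within 1 SE of 0 were left out of this comparison, and the shares of cells moved with depth in 75 of 80 recomputed values. Grik1 below about 2 CPM and Grik4 in single libraries rest on few UMIs, which limits their order.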
